A study of Mus musculus with 16 samples.

Results

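The mitochondrial ribosomal proteins are encoded in the nucleus, made on cytosolic ribosomes and imported into mitochondria. They were taken as all array genes named Mrpl or Mrps followed by a digit, which gave 76 genes, read by 106 probes, of 22328 genes on the arrays. The brightest probe stood for each gene. The arrays compared polysomal RNA, which carries several ribosomes per mRNA, with sub-polysomal RNA in OT-1 T cells, which bear a transgenic receptor for the peptide SIINFEKL. WT cells were heterozygous for OT-1 on a Rag-/- background, and the Lck-/- cells had this background and lacked Lck, the kinase that starts T cell receptor signalling. Both kinds came from lymph node and were cultured with 100 nM SIINFEKL for 24 h, and 100 µg/ml cycloheximide, a drug that freezes ribosomes on their mRNAs, was added 10 min before harvest. Each genotype had 4 extracts, and each extract was read on 2 arrays with the dyes swapped. Labels speak of biological replicates without naming animals or cultures, so p-values cover only the spread between these extracts. The sources used here do not say how Lck was removed or what "OFF" in the series title stands for.

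The mitochondrial ribosome translates the few mRNAs of the mitochondrial genome, all of them for membrane subunits of the respiratory chain and ATP synthase. Its proteins fall into those with a counterpart in bacterial ribosomes and those found only in mitochondria, and nearly all are needed in fixed proportion with mitochondrial rRNA. T cells make more mitochondria when activated, and translation inside mitochondria is known to be needed for their effector responses. Of the 76 genes, 30 encode large subunit proteins with a bacterial counterpart and 19 large subunit proteins specific to mitochondria. The small subunit has 16 and 10, respectively. The last, Mrps36, carries the family name but is a subunit of the 2-oxoglutarate dehydrogenase complex (also called Kgd4).

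RefSeq promoter windows, 250 bases before to 50 after the annotated start (build GRCm38.p6), were found for 67 of the 76 genes. Of these, 41 (61.2%) held at least 1 of 5 motifs (ETS, NRF1, YY1, E-box and ZNF143, described below), against 20.9% of all genes' windows. The ZNF143 motif was added only after member sequences had been seen, and these shares were not tested. CCGGAAG, a core bound by ETS-family factors, lay in 23 of the 67 windows (34.3%), against 9.12% of the windows of all 27025 genes and 11.9% of those of protein-coding genes. The NRF1 motif, a near-palindrome, lay in 12 (17.9%, against 4.78% and 6.6%), and AANATGGCG, the YY1 motif, in 10 (14.9%, against 2.51% and 3.3%). CACGTG, the E-box read by Myc and USF factors, lay in 5 (7.46%), close to its share of 7.24% in all genes. The cytosolic ribosomal proteins, with 62 windows, had the ETS core in 38.7%, the NRF1 motif in 6.45% and the YY1 motif in 8.06%. A C at the annotated start followed by 4 pyrimidines is the start typical of the 5′ terminal oligopyrimidine mRNAs. It occurred in 13 of these 62 (21.0%) and in 0 of the 67 mitochondrial ribosomal protein windows. Its share was 2.49% over all genes and 2.17% over protein-coding genes, so 0 of 67 lies near these shares. Both strands were searched for the motifs, matches of different motifs overlapped in no window, and a match is a description, not a shown site of binding.

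The stretches below lie upstream of the start and belong to called genes that had a motif there. Mrpl37 and Mrpl3 had the only called differences in polysomal ratio. Mrps22, Mrps11, Mrpl34 and Mrpl32 are among the genes that fell in both fractions, and Mrpl20 among those that rose. Not all called genes had such a motif. The windows of Mrps36 and Mrpl11 held none, that of Mrps24 held a YY1 match only past the start, and Mrpl4 had no window. Each stretch is written 5′ to 3′ on the gene's strand, with the motifs above in capitals. The capitals also mark a motif of ZNF143, which was looked for only after the sequences of Mrps22 and Mrpl34 had been seen. It lay in 2 of the 67 windows (2.99%) and in 0.87% of all genes' windows. The window of Mrpl37 also holds a YY1 match past its start, which is not in the stretch shown.
Mrpl3, chr9:105053148-105053267, plus strand, ETS core: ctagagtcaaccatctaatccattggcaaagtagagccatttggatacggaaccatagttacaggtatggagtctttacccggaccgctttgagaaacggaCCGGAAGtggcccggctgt
Mrps22, chr9:98601680-98601799, minus strand, ZNF143 motif and ETS core: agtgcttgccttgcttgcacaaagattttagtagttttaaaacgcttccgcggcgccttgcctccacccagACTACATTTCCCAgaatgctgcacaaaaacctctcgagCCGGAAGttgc
Mrpl34, chr8:71464806-71464925, plus strand, ETS core and ZNF143 motif: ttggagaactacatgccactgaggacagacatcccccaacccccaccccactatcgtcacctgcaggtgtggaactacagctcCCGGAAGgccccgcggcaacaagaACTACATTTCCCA
Mrpl32, chr13:14613068-14613187, minus strand, NRF1 motif: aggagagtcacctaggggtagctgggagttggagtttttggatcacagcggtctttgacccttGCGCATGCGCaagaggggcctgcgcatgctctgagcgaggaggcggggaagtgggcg
Mrps11, chr7:78782981-78783100, plus strand, YY1 motif read on the other strand: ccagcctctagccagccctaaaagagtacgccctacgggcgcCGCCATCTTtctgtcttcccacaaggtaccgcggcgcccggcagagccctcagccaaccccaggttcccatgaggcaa
Mrpl37, chr4:107066927-107067046, minus strand, E-box: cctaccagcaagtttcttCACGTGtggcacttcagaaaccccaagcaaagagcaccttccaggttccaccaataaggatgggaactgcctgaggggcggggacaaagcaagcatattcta
Mrpl20, chr4:155802758-155802877, plus strand, E-box: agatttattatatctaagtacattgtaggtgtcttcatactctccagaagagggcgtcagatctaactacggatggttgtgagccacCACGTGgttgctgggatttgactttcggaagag
The ETS core ended 13 bases before the start in Mrpl3, 5 before it in Mrps22 and 31 before it in Mrpl34.

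The arrays read these genes well: on each array 71 to 76 of the 76 (median 75.5) were well above background in both channels, and no spot was saturated. Over all probes, 14619 to 50776 (median 20212.5) passed in the polysomal channel and 12531 to 30976 (median 22889) in the sub-polysomal channel. The 50776 came from a single array, the unswapped one of Lck-/- replicate 1. The next highest polysomal count was 26643, on an array of WT replicate 3, so that array stood apart in its background flags. Lck itself averaged 15.03 ± 0.21 in WT and 14.18 ± 0.13 in Lck-/- (log2 mean of both fractions, SD, n = 4 each), a fall by 0.85 (SE 0.14, limma adjusted p = 0.00301), and its probe remained bright in all 4 Lck-/- extracts. The sources used here do not say whether that probe lies in the deleted part. All 9 T cell markers passed in both genotypes, as did 1 of 5 B cell markers (Cd79b) and 2 of 5 myeloid markers (Csf1r and Itgam), while Cd79a, Ms4a1, Pax5, Cd14 and Adgre1 passed on no array. No NK or stroma marker passed, and of 3 erythroid markers Hba-a1 passed in Lck-/- only, at 7.26 to 7.97 in WT and 7.74 to 10.35 in Lck-/- with the highest value in replicate 1. The part of these other cells in the results was not tested. In bulk RNA of this kind, fewer cells of a type and less RNA per cell cannot be told apart.

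A pair of extracts stood apart before any comparison. The array labelled WT replicate 1 and its labelled dye swap had opposite deviations from the WT mean ratio (r = -0.84 across the genes tested, which are not independent), as did those of WT replicate 2 (r = -0.82). Exchanging the 2 swaps gave r = 0.73 and 0.83, and in the other 6 extracts each array correlated with its own swap at 0.13 to 0.65. The labels were kept. Counts with the swaps exchanged ("crossed") and without these 2 extracts are given beside the main counts or in the closing sections. Averaging arrays with opposite deviations draws these 2 extracts towards the WT mean ratio, which can narrow the spread behind the standard errors.

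Within each genotype the ratio of polysomal to sub-polysomal RNA showed how these mRNAs sat relative to the typical mRNA of the array, which the normalization sets to about 0. In WT cells 20 of the 73 genes tested lay above 0 and 16 below (limma, adjusted p below 0.05), and among all genes 33.5% lay above and 28.7% below. Their median was 0.02, against 0.04 for all genes, so as a group they sat at the middle of the array. The cytosolic ribosomal proteins did not: 76 of 80 lay below 0 in WT, with a median of -1.33. In Lck-/- cells 7 of 73 lay above 0 and 24 below, with a median of -0.11, while 26.9% of all genes lay above and 29.2% below. With no normalization within arrays, 70 of the 73 lay above 0 in WT and none below (90.0% and 2.43% of all genes), while 30 lay above and 3 below in Lck-/- (56.7% and 4.22% of all genes). The polysomal share of these mRNAs as such is therefore not given by the values above, only their place among mRNAs.

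Members spread widely around these medians, with an SD over the 73 genes of 0.47 in WT and 0.40 in Lck-/-. Ratios ran from -1.59 (Mrpl42) to 0.88 (Mrpl15) in WT and from -1.06 (Mrps36) to 0.81 (Mrpl15) in Lck-/-. Over the 73 genes the 2 genotypes' mean ratios correlated at r = 0.80, given as a description, since both were read by the same probes. Of the 20 genes above 0 in WT, 5 were also above in Lck-/-, and of the 16 below in WT, 14 were also below in Lck-/-.

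At the low end stood Mrpl42, a large subunit protein specific to mitochondria, with WT ratios of -1.39, -1.54, -1.05 and -2.41 in replicates 1 to 4 and Lck-/- ratios of -0.63, -1.51, -0.88 and -0.96. Every extract of both genotypes lay below 0. Next in WT came Mrpl30 (-1.10 ± 0.25, SD, n = 4), Mrpl33 (-0.99 ± 0.44), Mrpl27 (-0.95 ± 0.33), Mrps36 (-0.85 ± 0.26) and Mrpl18 (-0.79 ± 0.35). Apart from Mrps36, these are large subunit proteins with bacterial counterparts; bacterial L27 reaches the peptidyl transferase centre and L18 binds 5S rRNA. In Lck-/- the low end held Mrps36 (-1.06 ± 0.49), Mrpl30 (-0.999 ± 0.50), Mrpl42 (-0.997 ± 0.37), Mrpl18 (-0.99 ± 0.54), Mrps2 (-0.81 ± 0.22) and Mrpl38 (-0.71 ± 0.50). Apart from Mrpl42 and Mrpl30 in WT, neighbours in either order differed by less than either SD.

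At the high end stood Mrpl15, with WT ratios of 0.84, 0.88, 1.11 and 0.70 and Lck-/- ratios of 0.40, 0.88, 0.96 and 0.99. All 8 extracts lay above 0, and the genotypes overlapped. Mrps28 (0.86 ± 0.23, SD, n = 4), Mrps31 (0.67 ± 0.35), Mrpl28 (0.59 ± 0.31), Mrpl20 (0.54 ± 0.18) and Mrpl51 (0.53 ± 0.14) followed in WT. In Lck-/- it was Mrps31 (0.77 ± 0.28), Mrpl47 (0.48 ± 0.46), Mrpl46 (0.46 ± 0.41), Mrps28 (0.44 ± 0.38) and Mrps35 (0.35 ± 0.31). Mrpl47, the counterpart of bacterial L29 near the exit of the peptide tunnel, stood at -0.27 ± 0.25 in WT, and its difference is tested below.

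**Figure D1:**
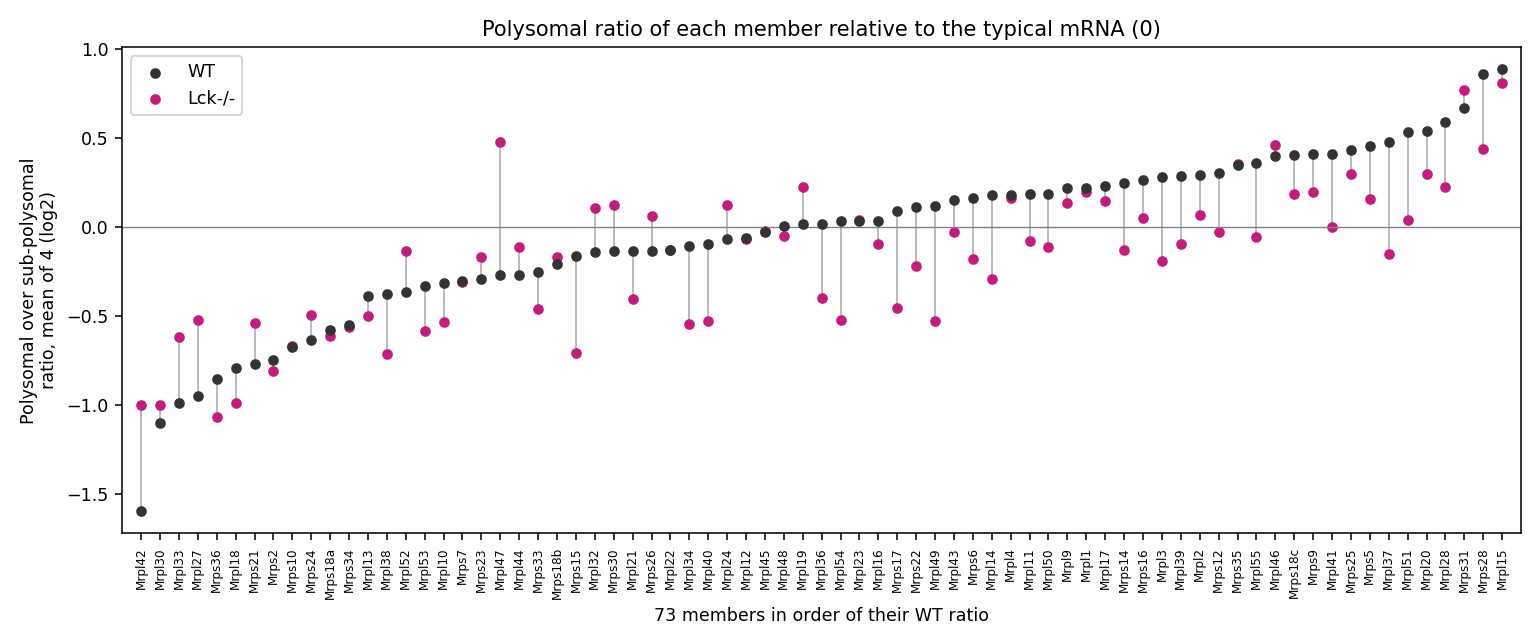
Mean log2 ratio of polysomal over sub-polysomal RNA in 4 WT and 4 Lck-/- extracts for each of 73 genes, ordered by their WT value, with a grey line joining the genotypes. From Mrpl42 at -1.59 to Mrpl15 at 0.88 in WT, most genes keep their end of the order in Lck-/- cells.

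The ratio was then compared between genotypes, which shows whether these mRNAs sat higher or lower on polysomes, relative to other mRNAs, in cells without Lck. Of 73 genes tested, none rose and 2 fell (limma, adjusted p below 0.05), against 3.86% of all 8263 genes called (2.81% higher, 1.05% lower). An unadjusted p below 0.05 was found for 18 of the 73 and for 1723 of the 8263. The median difference, Lck-/- minus WT, was -0.13 log2, against -0.04 for all genes. Values lay below 0 for 51 of the 73 and for 4611 of the 8263. Over the cytosolic ribosomal proteins, by contrast, 48 of 80 rose, with a median of 1.03. Mrpl35, Mrps11 and Mrps27 did not enter, since both channels passed on only 5, 4 and 4 of the 8 Lck-/- arrays.

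Mrpl37, a large subunit protein specific to mitochondria, had WT ratios of 0.48, 0.62, 0.39 and 0.40 and Lck-/- ratios of -0.25, -0.17, -0.05 and -0.14. All WT extracts lay above 0 and all Lck-/- extracts below. It fell by 0.63 (SE 0.11, limma adjusted p = 0.0155), a 1.54-fold change. Mrpl3, the counterpart of bacterial L3, which packs against the peptidyl transferase centre, had WT ratios of 0.26, 0.32, 0.37 and 0.18 and Lck-/- ratios of -0.23, -0.26, -0.09 and -0.18. Again no Lck-/- extract reached the lowest WT value, as for 728 of 8263 genes; in 14.5% of all genes the groups did not overlap in 1 direction or the other. It fell by 0.47 (SE 0.11, limma adjusted p = 0.0401).

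The members next in order missed the threshold. Mrpl36 read 0.00, -0.01, 0.02 and 0.05 in WT and -0.51, -0.44, -0.29 and -0.36 in Lck-/-, a difference of -0.42 (95% interval -0.65 to -0.18, limma adjusted p = 0.0598). Mrps17, the counterpart of bacterial S17, differed by -0.55 (interval -0.87 to -0.22, adjusted p = 0.0694 in limma). In both the genotypes did not overlap. Mrpl47 had the highest difference of all 73 at 0.75 (interval 0.26 to 1.23, adjusted p = 0.0916 in limma), with WT values of -0.39, -0.31, 0.09 and -0.47 against 0.33, -0.10, 0.77 and 0.91. Its groups overlapped through WT replicate 3 and Lck-/- replicate 2.

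Both ratio calls were lost under several settings. With the WT swaps crossed, or without WT replicates 1 and 2, none of the 73 was called by limma (7 and 12 had an unadjusted p below 0.05). Leaving out WT replicate 1, WT replicate 2 or Lck-/- replicate 4 also gave 0, and 1 call was left when WT replicate 3, WT replicate 4 or Lck-/- replicate 3 was dropped. Calls over all genes, 232 rises and 87 falls in the main fit, dropped as well. They were 41 and 0 crossed, and 84 and 2 without WT replicates 1 and 2. Without WT replicate 1, WT replicate 2 or Lck-/- replicate 4 they were 109 and 5, 163 and 18, and 97 and 6. When WT replicate 3, WT replicate 4 or Lck-/- replicate 3 was dropped they were 148 and 11, 172 and 44, and 93 and 11. Within slide 1 alone and slide 2 alone no member was called. Of all genes, 184 rose and 4 fell on slide 1, and 35 rose and 2 fell on slide 2. Mrpl37 differed by -0.61 and -0.64 on these slides, Mrpl3 by -0.18 and -0.77. By median over the 73 genes, the WT ratios were 0.00, 0.00, 0.21 and -0.06 and the Lck-/- ratios -0.00, -0.39, -0.03 and -0.09. Lck-/- replicate 2 thus lay below all others, and without it the median difference was -0.01, with 1 gene rising and 2 falling. Over all genes 286 rose and 157 fell without it. The slides differed as well, with medians of -0.01 on slide 1 and -0.29 on slide 2.

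**Figure D2:**
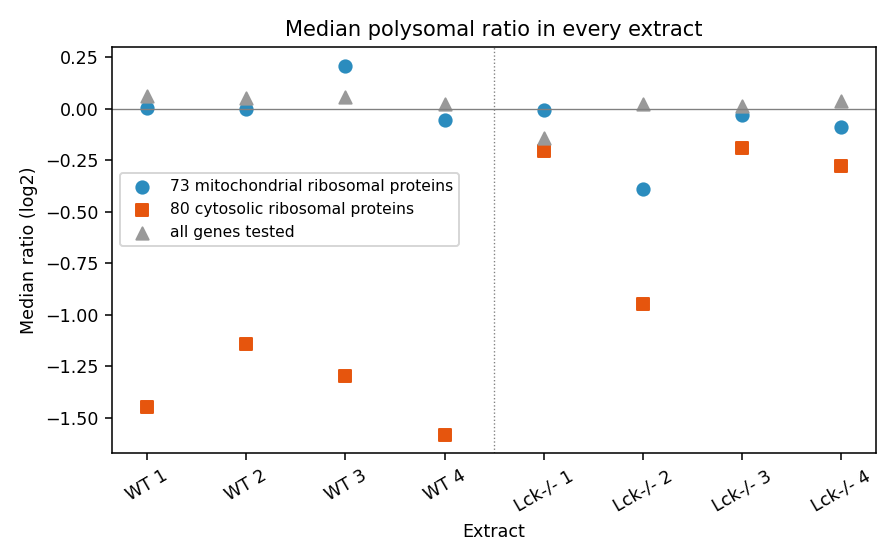
Median log2 ratio of polysomal over sub-polysomal RNA in each of the 8 extracts (x axis) for 73 mitochondrial ribosomal proteins (circles), 80 cytosolic ribosomal proteins (squares) and all genes tested (triangles). The circles stay between -0.09 and 0.21 except at Lck-/- replicate 2 (-0.39), while the squares lie lower in every WT extract than in any Lck-/- extract.

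Loess sets the typical ratio to 0 at each brightness, so the ratios were also compared on other scales. With each array centred on the median of its probes the 73 genes had a median difference of -1.07 and 62 fell, as did 56.3% of all genes. With no normalization within arrays it was -1.08 and 69 fell, as did 71.9% of all genes. All genes shifted too, with a median of -0.78 on both scales. With the ratios of the authors' deposited table, fitted in the same way, the members' median was -1.47 (71 fell) and that of all genes -1.15 (90.0% fell). After each column of the authors' deposited table was centred, these medians were -0.28 (14 fell) and 0.03 (3.49% fell). Mrpl37 and Mrpl3 were lower in Lck-/- on every one of these scales, Mrpl37 by -0.47 to -1.65 and Mrpl3 by -0.47 to -1.81. With median centring, with no normalization and with the authors' uncentred ratios all 73 members were lower, so this direction does not set the 2 genes apart there. With the authors' ratios centred 58 of the 73 were lower, and Mrpl37 was not called while Mrpl3 was. A fixed volume of RNA, not a fixed mass, was labelled, so an overall shift and a difference in labelled amount cannot be told apart.

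**Figure D3:**
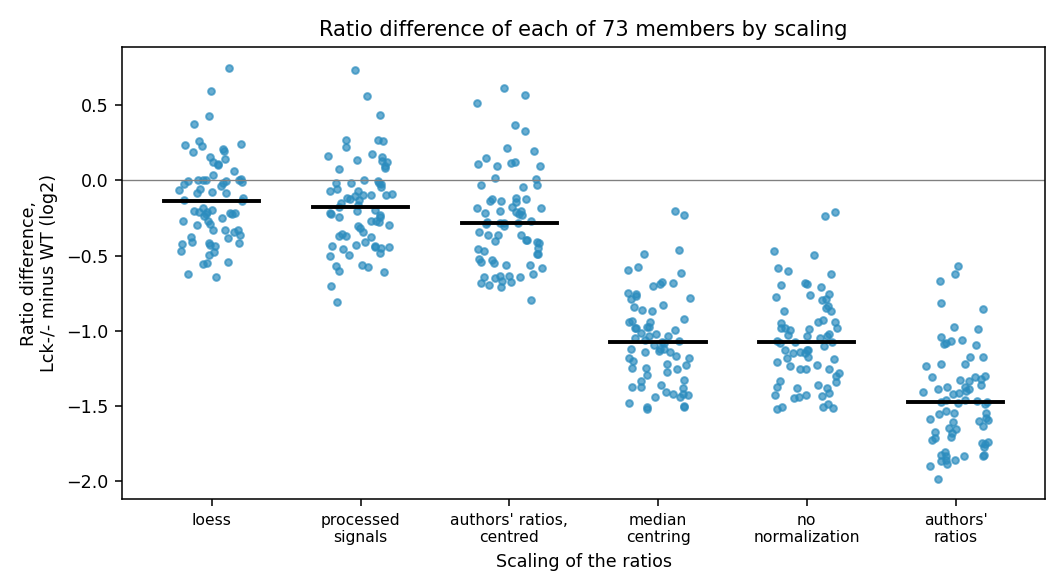
Difference in log2 ratio, Lck-/- minus WT, of each of 73 genes (points, spread sideways for view) with their median (bar) under 6 scalings. The medians are -0.13, -0.18 and -0.28 on the first 3 scalings and -1.07, -1.08 and -1.47 with median centring, with no normalization within arrays and with the authors' ratios.

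Levels were compared next. The mean of both fractions is given first, because normalization within arrays does not enter it. Of 76 genes tested, 3 rose and 11 fell in Lck-/- (limma, adjusted p below 0.05), against 9.34% of all 9073 genes higher and 11.3% lower (20.7% in either direction). The median difference was -0.06 log2, against 0.04 for all genes. Values lay below 0 for 41 of the 76 and for 4132 of the 9073. The share called was near that of all genes, and calls went both ways. Of the 26 small subunit proteins, 1 rose and 5 fell, and of the 49 large subunit proteins, 2 rose and 5 fell. Mrps36 made the eleventh fall. Among the falls, Mrps11 and Mrps27 passed the filter only through WT, the genotype where they were higher.

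Mrps22, a small subunit protein specific to mitochondria whose loss in patients impairs oxidative phosphorylation, read 10.72, 10.76, 11.02 and 10.39 in WT and 9.90, 9.77, 9.97 and 9.49 in Lck-/- (mean of both fractions, log2 intensity, replicates 1 to 4). Every WT extract lay above every Lck-/- extract, as for 25.9% of all genes in 1 direction or the other. It fell by 0.94 (SE 0.16, limma adjusted p = 0.0039), a 1.92-fold drop. Mrps24, the counterpart of bacterial S3 at the mRNA entry channel, read 11.88, 11.80, 12.25 and 11.82 against 11.53, 10.99, 10.91 and 10.50 in Lck-/-. The groups did not overlap, with Lck-/- replicate 1 nearest to WT, and the fall was 0.96 (SE 0.20, limma adjusted p = 0.0092). Mrps11, the counterpart of S11 on the platform where mRNA leaves, read 8.23, 8.26, 9.13 and 8.24 against 7.70, 7.39, 7.45 and 7.23. Its fall by 1.02 (SE 0.21, limma adjusted p = 0.0075) includes a WT replicate 3 far above the others, and its probe passed background in both channels on only 6 of 8 WT and 4 of 8 Lck-/- arrays. It thus entered this comparison through WT alone. Without WT replicate 3 or any other single extract Mrps11 stayed called, with differences of -1.10 to -0.80.

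Mrps5, the counterpart of S5 beside the entry channel, fell by 0.63 (SE 0.18, limma adjusted p = 0.0311), and Mrps27, which belongs to the pentatricopeptide repeat proteins, fell by 0.57 (SE 0.17, limma adjusted p = 0.0343). In WT they averaged 8.62 ± 0.36 and 8.21 ± 0.35 (SD, n = 4). The probe of Mrps27 passed both channels on 7 of 8 WT but only 4 of 8 Lck-/- arrays, so it entered through WT alone. Mrps5 lost its call without WT replicate 1 or 3 or Lck-/- replicate 2 or 4, and Mrps27 without WT replicate 3 or 4 or any 1 of the Lck-/- extracts. Mrps36 read 11.77, 11.78, 11.996 and 11.68 against 11.31, 11.19, 11.10 and 10.90, with no overlap. It fell by 0.68 (SE 0.13, limma adjusted p = 0.0062).

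In the large subunit Mrpl32, whose maturation by the m-AAA protease is a step in building the mitochondrial ribosome, read 11.19, 11.05, 11.31 and 11.19 in WT and 10.55, 10.45, 10.55 and 10.14 in Lck-/-. The gap between the groups was wider than the spread in either, and the fall was 0.76 (SE 0.13, limma adjusted p = 0.0042). Mrpl42 read 11.03, 10.76, 11.25 and 10.57 against 9.78, 10.50, 10.09 and 9.53 and fell by 0.93 (SE 0.22, limma adjusted p = 0.0138). Lck-/- replicate 2 lay just under the lowest WT extract. Mrpl34, the counterpart of the small bacterial protein L34, fell by 0.76 (SE 0.18, limma adjusted p = 0.0146), Mrpl18 by 0.54 (SE 0.13, adjusted p = 0.0148) and Mrpl4, whose bacterial counterpart lines the peptide tunnel, by 0.47 (SE 0.11, adjusted p = 0.0171). Without WT replicates 1 and 2 together, Mrpl42, Mrpl34, Mrpl18 and Mrpl4 were not called; Mrpl18 also lost its call without WT replicate 2 alone, and Mrpl4 without Lck-/- replicate 3 or 4.

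The rises were smaller. Mrpl20, whose bacterial counterpart is needed early in assembly of the large subunit, read 14.96, 14.96, 14.84 and 15.01 in WT and 15.34, 15.37, 15.32 and 15.28 in Lck-/-. Its extracts were tight in both groups, and it rose by 0.39 (SE 0.11, limma adjusted p = 0.0308), a 1.31-fold change. Mrps12, the counterpart of S12 at the decoding centre, rose by 0.38 (SE 0.11, limma adjusted p = 0.0364), and Mrpl11, at the base of the factor-binding stalk, by 0.36 (SE 0.12, adjusted p = 0.0484). These 3 calls were lost without 5, 6 and 7 of the 8 extracts, respectively. Mrps22, Mrps24, Mrpl32 and Mrps36, in contrast, stayed called in all 8 such fits and under all 17 other settings. Among these 17, median centring and no normalization within arrays cannot change the mean of both fractions. For the list as a whole the count of 14 dropped to 9 without WT replicate 3 or Lck-/- replicate 3 and to 8 without Lck-/- replicate 4, and it was 5 on slide 1 alone, 10 on slide 2 alone and 7 without WT replicates 1 and 2 together. Over all 9073 genes, 847 rose and 1028 fell in the main fit. Without those single extracts, in that order, 377 and 701, 378 and 691, and 301 and 664 did. It was 275 and 565 on slide 1, 482 and 670 on slide 2, and 287 and 530 without WT replicates 1 and 2. With the WT swaps crossed, 1 member rose and 10 fell, against 733 and 922 over all genes.

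In the polysomal fraction alone no gene of 76 rose and 11 fell (limma; 5.60% of all genes were higher and 9.37% lower, 15.0% in either direction), with a median of -0.14 against -0.00 for all genes. Of the 2 genes called in the ratio, Mrpl3 had a polysomal level of 12.25, 12.26, 12.62 and 12.61 in WT and 11.73, 12.02, 11.28 and 10.60 in Lck-/-. The Lck-/- extracts spread over more than a log2 unit, all below WT. It fell by 1.02 (SE 0.27, limma adjusted p = 0.0269) and lost the call without WT replicate 2, 3 or 4 or Lck-/- replicate 3 or 4. Mrpl37 read 9.15, 9.04, 9.23 and 9.23 against 8.66, 8.37, 8.46 and 8.04, a fall by 0.78 (SE 0.16, limma adjusted p = 0.0111) that no single extract removed. The other falls were those of Mrps22 (-1.10), Mrps11 (-1.08), Mrpl34 (-0.98), Mrps24 (-0.89), Mrps36 (-0.79), Mrps27 (-0.77), Mrps5 (-0.77), Mrpl32 (-0.64) and Mrpl4 (-0.48). Among these 11, the genotypes overlapped for Mrps24 and Mrps5. Over all genes tested in the polysomal level, the groups did not overlap for 22.6%. The count was 7 without WT replicate 2 or Lck-/- replicate 3, and 3 without WT replicate 3 or Lck-/- replicate 4. On slide 1 alone the members' count was 0 (7 genes with an unadjusted p below 0.05) and on slide 2 alone 12. With the WT swaps crossed it was 2, and without WT replicates 1 and 2 together, where the fall of Mrpl37 was not called, it was 3. Over all genes, rises and falls were 19 and 72, 938 and 975, 201 and 496, and 43 and 217 in the same order.

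In the sub-polysomal fraction 6 of 76 rose and 12 fell (limma; 8.54% of all genes were higher and 10.8% lower, 19.3% in either direction), with a median of 0.02 against 0.05 for all genes. The rises were those of Mrpl2 (0.60), Mrps12 (0.54), Mrpl41 (0.52), Mrpl20 (0.50), Mrpl11 (0.49) and Mrps17 (0.45). Mrpl2 is the counterpart of bacterial L2, which like L3 lies by the peptidyl transferase centre. Mrps12 read 12.88, 12.89, 12.91 and 12.99 in WT and 13.54, 13.38, 13.44 and 13.47 in Lck-/- (sub-polysomal level, log2). Its SD was 0.05 in WT and 0.07 in Lck-/-, with a gap between the groups of several SDs, and it rose by 0.54 (SE 0.11, limma adjusted p = 0.0093) with or without any single extract, though not without WT replicates 1 and 2 together.

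Of the sub-polysomal falls, that of Mrpl42 was the largest. It read 11.72, 11.53, 11.77 and 11.77 in WT and 10.09, 11.26, 10.53 and 10.01 in Lck-/-, a fall by 1.22 (SE 0.24, limma adjusted p = 0.0067). Lck-/- replicate 2 again lay nearest to WT. Mrps24 (-1.03), Mrps11 (-0.96), Mrpl32 (-0.88), Mrps22 (-0.77), Mrpl27 (-0.67), Mrps36 (-0.58) and Mrpl34 (-0.54) came next, then Mrpl46, Mrpl33, Mrpl4 and Mrpl47, the last 3 of which changed sign on other scalings, as given below. The 7 genes Mrpl32, Mrpl34, Mrpl4, Mrps11, Mrps22, Mrps24 and Mrps36 fell in both fractions and in their mean (Mrpl4 not on every scaling), and none of them that entered the ratio comparison was called there. Mrps11 entered the sub-polysomal comparison through WT alone, where that channel passed on 7 arrays, against 5 in Lck-/-. Across the 3 level comparisons 23 of the 76 were called at least once and 53 never.

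Scaling changed the split of the sub-polysomal calls. With median centring, which moved the median of all genes to 0.36, 34 rose and 2 fell, against 36.6% and 3.40% of all genes. In the polysomal fraction it moved that median to -0.31, and 0 rose and 27 fell, against 21.2% of all genes falling. The sub-polysomal count of 18 was 9 when WT replicate 2 was left out, 10 when WT replicate 3 was, and 8 when Lck-/- replicate 3 or 4 was. It was 7 without WT replicates 1 and 2 together. On slide 1 alone it was 22, and on slide 2 alone 0 (14 genes with an unadjusted p below 0.05). Over all genes, 829 rose and 1044 fell in the main fit. Without those single extracts it was 472 and 763, 457 and 752, 353 and 645, and 390 and 664. It was 385 and 677 without WT replicates 1 and 2, 1161 and 1262 on slide 1, and 42 and 135 on slide 2. With the WT swaps crossed, 2 members rose and 6 fell, against 411 and 649 over all genes. The sub-polysomal falls of Mrpl4, Mrpl33 and Mrpl47 turned to small uncalled differences above 0 (0.02 to 0.06) with median centring and with no normalization within arrays. The other called differences between the genotypes kept their direction under the settings tried.

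**Figure D4:**
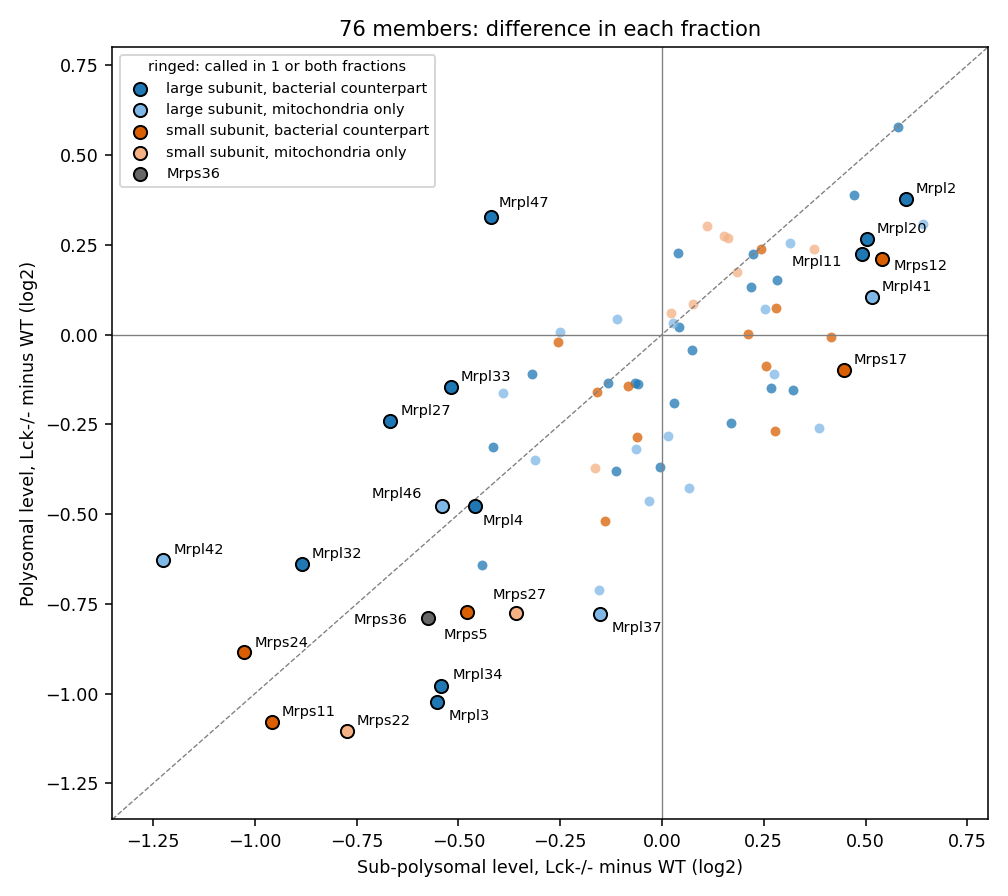
Difference in log2 level, Lck-/- minus WT, in the sub-polysomal (x axis) and polysomal (y axis) fraction for 76 genes coloured by subunit and origin, with ringed and named points called in 1 or both fractions and a dashed line where both are equal. Called falls lie at the lower left, from Mrpl4 to Mrps11 and Mrps22, apart from Mrpl47, which was called lower in the sub-polysomal fraction only; the sub-polysomal falls of Mrpl4, Mrpl33 and Mrpl47 changed sign with median centring and with no normalization within arrays. The 6 rises at the right were called in the sub-polysomal fraction only.

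**Figure D5:**
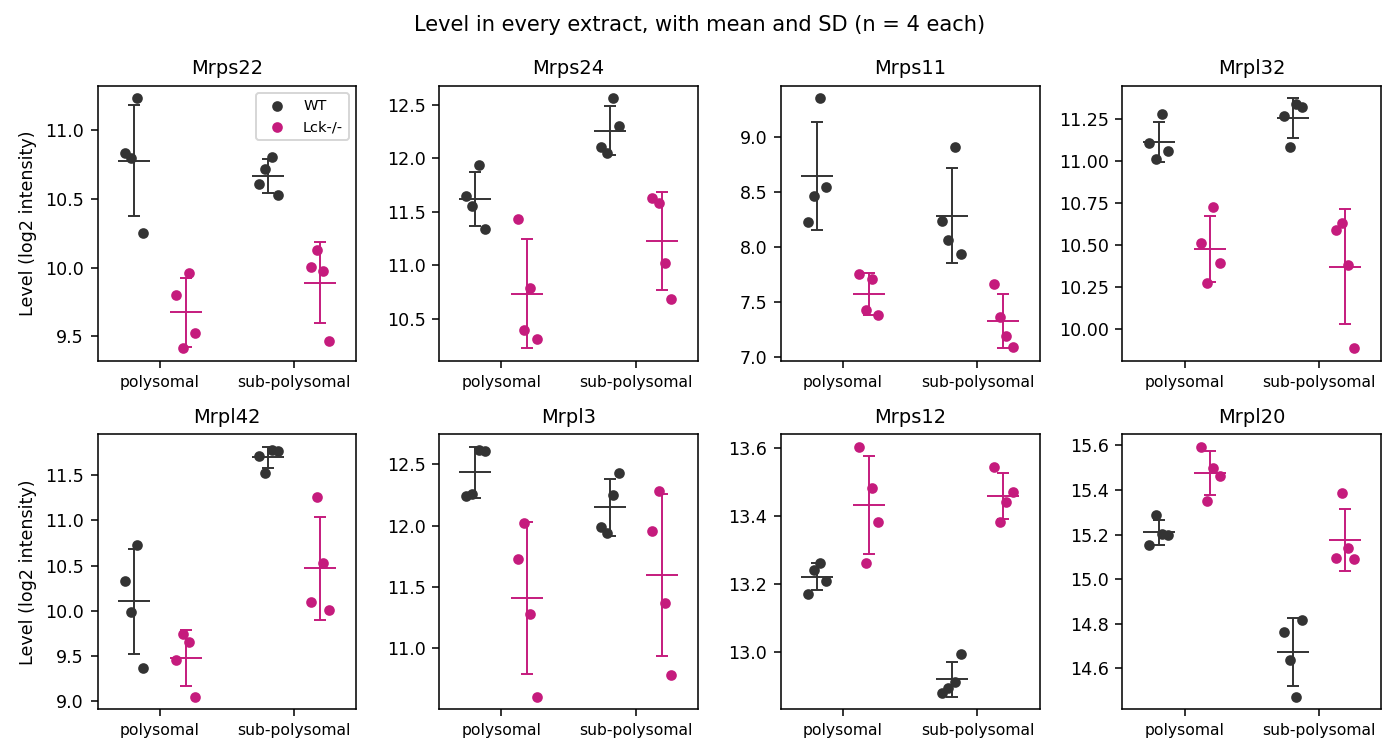
Level (log2 intensity) of 8 genes in each of 4 WT and 4 Lck-/- extracts, in both fractions, with mean and SD; each panel has its own axis. Mrps22, Mrps24, Mrps11 and Mrpl32 are lower in Lck-/- in both fractions, and Mrpl3 spreads widely in Lck-/-. Mrps12 and Mrpl20 have non-overlapping groups in the sub-polysomal fraction, where they were called, as have 25.9% of all genes there.

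By structural group, no part of the ribosome stood out in all comparisons. The 46 proteins with a bacterial counterpart had 3 rises and 7 falls in the mean of both fractions, and the 29 specific to mitochondria 0 rises and 3 falls. The 9 proteins of the central protuberance had a median of -0.25 with 1 fall, the 5 around the exit tunnel a median of 0.03 with no call, and the 3 of the stalk a median of 0.36 with 1 rise. Mrpl12, the stalk protein that also binds mitochondrial RNA polymerase, had a difference of 0.58 that was not called (limma adjusted p = 0.204).

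The brightness of the probe, a property of the measurement and not an abundance that can be compared between genes, differed between called rises and called falls. Of the 26 genes with the dimmest probes, 7 fell and none rose in the mean of both fractions; of the 25 in the middle, 3 fell and none rose; of the 25 with the brightest, 1 fell and 3 rose. All genes between the same brightness limits showed a like slope: 12.2%, 8.77% and 7.90% fell and 7.09%, 14.1% and 18.3% rose. The part of brightness in the calls was not tested.

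Second probes gave a check within genes. In the mean of both fractions, 22 other probes of 21 genes could be compared with the brightest one, and 16 had the same sign. It was 16 of 22 in the ratio, 18 of 23 in the polysomal level and 14 of 23 in the sub-polysomal level. Of the genes called in the mean, only Mrps36 and Mrpl4 had a second probe. Mrpl37 and Mrpl3 had 1 probe each. For most called genes this check could therefore not be made. Of the 3 probes of Mrps18b, a small subunit protein, 1 went against the others, and the first 30 bases of it and of the brightest are printed to show that they read different stretches (mm9 coordinates of the whole probe).
Mrps18b, brightest probe, chr17:36047331-36047390, minus strand: ggtgtgtccctgatttaaacctcctggctc
Mrps18b, dimmer probe, chr17:36051313-36051461, minus strand: acagcggacccgaaagacatgtattcgtaa
The dimmer probe spans more genome than its length, so it crosses an intron, and it lies upstream of the brightest probe. For Mrps18b the difference was 0.04 by the brightest probe, 0.10 by the third probe and -0.91 by the dimmer one (9.12 ± 0.34 in WT, 8.21 ± 0.41 in Lck-/-, SD, n = 4). Mrpl27, called in the sub-polysomal fraction at -0.67, read 0.04 there by its other probe, so its call was not borne out by that probe. Its ratio difference was 0.43 by the brightest probe and -0.53 by the other. With all probes of a gene averaged, 3 genes rose and 13 fell in the mean of both fractions. Of all 9073 genes, 736 rose and 1081 fell in that fit.

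Genes that work with the mitochondrial ribosome were read from lists outside the name rule. Their calls come from the main fit only, and other settings were not examined for them. Over all genes, 232 ratio rises became 41 with the WT swaps crossed and 84 without WT replicates 1 and 2. Of all genes, 2.81% rose in the ratio, 5.60% in the polysomal level and 8.54% in the sub-polysomal level. In the mean of both fractions 9.34% rose and 11.3% fell. Of 8 ribosome proteins with other names, Chchd1, a small subunit protein, fell in the mean of both fractions by 0.49 (SE 0.14, limma adjusted p = 0.0326), and none was called in the ratio. Of 12 mitochondrial translation factors, Mtif2, the initiation factor, was the 1 of 10 tested that rose in ratio, from -1.18 ± 0.34 to -0.36 ± 0.22 (difference 0.82, SE 0.18, limma adjusted p = 0.0326). Its polysomal level rose by 0.58 as well (limma adjusted p = 0.0244). The elongation factor Gfm1 rose in the sub-polysomal fraction only, by 0.48 (limma adjusted p = 0.0234).

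Among 23 assembly factors, 21 could be tested in the mean of both fractions, of which 2 rose and 2 fell (9.34% and 11.3% of all genes). Dhx30, an RNA helicase of mitochondrial RNA granules, rose from 12.89 ± 0.18 to 13.66 ± 0.14 (difference 0.78, SE 0.13, limma adjusted p = 0.0040). Mpv17l2, which associates with the large subunit, fell by 0.84 (SE 0.18, limma adjusted p = 0.0102) and Mettl15, a methyltransferase for the small subunit rRNA, by 0.57 (SE 0.16, adjusted p = 0.0311). Of 12 genes of mitochondrial RNA supply, Supv3l1, the helicase of the mitochondrial RNA degradosome, fell by 0.91 (SE 0.18, limma adjusted p = 0.0066) and Elac2, which cuts tRNA 3′ ends, rose by 0.46 (SE 0.14, adjusted p = 0.0425). None of these 2 lists had a gene called in the ratio, with medians of 0.01 and -0.11.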

How the data were processed

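Polysomal and sub-polysomal RNA of 4 WT and 4 Lck-/- extracts was hybridised to 16 Agilent 2-colour arrays on 2 slides, each extract with dyes swapped. Fractions 1 to 5 of a 10 to 50% sucrose gradient were pooled as sub-polysomal and 6 to 10 as polysomal, and 1.5 µl of each RNA was labelled, per the labels' protocols. The deposited scanner files hold spot intensities, per the file headers from Agilent Feature Extraction 10.7.3.1 with probes placed on mm9, and its flags for background and saturation. The authors also deposited a table of log2 ratios, made with limma per the submitters' processing notes; its normalization and centring are not given in the sources used here, and it was used as an alternative, with its columns named OFF taken as Lck-/-, the other group of the series.

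Spot intensities were corrected with normexp (offset 50), normalized by loess within and Aquantile between arrays (limma 3.58.1, R 4.3.3), with control and outlier spots at weight 0 in the loess fit, and the 2 arrays of an extract were averaged. The ratio is log2 polysomal minus sub-polysomal, and differences are Lck-/- minus WT. Probes were named through RefSeq accession (27235), symbol (3581) or synonym (565), and the brightest probe stood for a gene. For the ratio, a gene had to have both channels well above background on at least 6 of the 8 WT and 6 of the 8 Lck-/- arrays. For a level, the channel or channels it uses had to pass in this way in at least 1 genotype. Tests were limma's moderated test on all genes that entered, with Benjamini-Hochberg adjustment and a threshold of 0.05. "Rose" and "fell" mean past that threshold; unadjusted counts use the same value.

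On simulated data with 100 changed genes per size, changes of 1 log2 were recovered for 75 genes in the ratio (8263 genes), 68 in the polysomal level (10292), 70 in the sub-polysomal level (9703) and 77 in the mean of both fractions (9073). Changes of 0.5 were recovered for 14, 5, 8 and 19. Far more genes were called in the real level comparisons (1540, 1873 and 1875), and the adjustment depends on that number. The recovered counts thus need not hold for these data. The number of arrays limits the precision.

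The genes and lists were chosen with earlier results of these data known. Named genes are up to 8 called rises and 8 called falls in each comparison, and the 4 smallest p where fewer passed. The 6 highest and lowest ratios in each genotype, genes that did not enter and up to 3 of each related list were named too. Of the genes whose probes disagreed in sign, only Mrps18b and Mrpl27 were described as such. Mrps5, Mrpl4, Mrps27, Mrpl33, Mrpl46, Mrpl47, Mrpl18 and Mrpl12 were added where needed, after their values had been seen. Background correction, normalization, filter, probe choice, dye-swap pairing, extracts, slide, dye and the authors' ratios were varied one at a time. The values of 1 marker and 1 probe are not reported here.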

Additional observations from a re-analysis of the deposited data

Results flagged for a closer look

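Of 74 groups of 4 extracts checked for a value apart from the others (Dixon's test at its 95% critical value), 2 held one, where chance gives about 1 in 20 groups. For Mrpl20 the sub-polysomal level of Lck-/- replicate 2 was 15.38, while the other Lck-/- extracts lay between 15.09 and 15.14. For Mrps11 the mean of both fractions in WT replicate 3 was 9.13, while the other WT extracts lay between 8.23 and 8.26.

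The difference between genotypes was unlike in the polysomal and the sub-polysomal fraction for 2 genes, by the test of the ratio itself. It was -0.47 log2 for Mrpl3 (limma adjusted p = 0.0401) and -0.63 for Mrpl37 (limma adjusted p = 0.0155). Each had every Lck-/- extract below every WT extract, as had 728 of 8263 genes.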

How the results depend on the processing

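The called sub-polysomal falls of Mrpl33, Mrpl4 and Mrpl47 turned to 0.019, 0.028 and 0.057 log2 with median centring and to 0.022, 0.030 and 0.060 with no normalization within arrays, all uncalled. The median ratio against 0 in Lck-/- turned from -0.11 to 0.09, 0.37 and 0.39 with median centring, no normalization within arrays and the authors' ratios. Replicate numbers did not pair the extracts (same-numbered extracts correlated at 0.06, -0.17, 0.26 and -0.24 in their deviations of the ratio). With the replicate number as a block, 0 of 73 were called in the ratio by limma (2 without it, 18 with an unadjusted p below 0.05). The count was 10 in the polysomal level (11 without the block), 7 in the sub-polysomal level (18) and 11 in the mean of both fractions (14). Over all genes with the block, 174 rose and 5 fell in the ratio. For the levels, in the same order, it was 546 and 855, 425 and 717, and 636 and 863.

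For the ratio difference, 2 calls became 4 with no background subtraction, 1 with Agilent processed signals, 62 with median centring, 69 with no normalization within arrays, 1 with no filter, 4 with the mean of all probes, 71 with the authors' ratios and 14 with these centred. Over all genes, 232 rose and 87 fell in the main fit. Up to no normalization within arrays it was 207 and 158, 73 and 104, 32 and 4656, and 40 and 5940. For the rest it was 163 and 41 (of 22328), 220 and 92, 25 and 7426, and 443 and 288. The members' count was 0 with crossed dye swaps, without WT replicates 1 and 2, on slide 1 or slide 2 alone and with the polysomal fraction in Cy5 or Cy3 alone (limma, 7, 12, 14, 14, 4 and 7 with an unadjusted p below 0.05), and 0 to 3 without single extracts. Over all genes it was 41 and 0, 84 and 2, 184 and 4, 35 and 2, 36 and 0, and 30 and 0.

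For the polysomal level, 11 calls became 27 with median centring, 29 with no normalization within arrays, 7 when all 16 arrays had to pass background, 2 with crossed swaps and 3 without WT replicates 1 and 2. It was 0 on slide 1 and with the polysomal fraction in Cy5 or Cy3 alone (limma, 7, 13 and 10 unadjusted), and 3 to 12 without single extracts. Over all genes, 576 rose and 964 fell in the main fit. In the order above it became 51 and 2180, 85 and 2890, 525 and 568 (of 7020), 201 and 496, and 43 and 217. On slide 1, in Cy5 and in Cy3 alone it was 19 and 72, 28 and 136, and 99 and 235. For the sub-polysomal level, 18 became 36 and 37 under those normalizations, 5 with none between arrays, 8 with crossed swaps, 7 without WT replicates 1 and 2, 0 on slide 2 (limma, 14 unadjusted), 2 in Cy5 and 4 in Cy3, and 8 to 18 without single extracts. Over all genes, 829 rises and 1044 falls became 3548 and 330, 3596 and 342, 287 and 637, 411 and 649, and 385 and 677. On slide 2, in Cy5 and in Cy3 alone they were 42 and 135, 254 and 454, and 167 and 347.

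For the mean of both fractions, 14 became 8 with no normalization between arrays, 7 without WT replicates 1 and 2, 5 on slide 1, 8 in Cy5 and 9 in Cy3, and 8 to 16 without single extracts. Over all genes, 847 rises and 1028 falls became 313 and 670, 287 and 530, 275 and 565, 336 and 646, and 367 and 605. The ratio against 0 in WT had 36 calls, which became 65 with median centring, 70 with none, 72 with the authors' ratios, 20 with crossed swaps, 20 without WT replicates 1 and 2 and 18 in Cy5 (26 to 40 without single extracts). Over all genes, 2768 lay above 0 and 2375 below. In the same order it was 6677 and 291, 7437 and 201, 7813 and 123, 2044 and 1775, 1858 and 1778, and 1763 and 1266. In Lck-/- the members' 31 calls became 11 with median centring, 16 with crossed swaps, 16 on slide 1, 18 on slide 2, 15 in Cy5 and 19 in Cy3 (24 to 33). Over all genes there, 2224 lay above 0 and 2412 below. In the same order it was 2092 and 520, 1462 and 1499, 1249 and 1550, 1820 and 1410, 1160 and 1135, and 1531 and 1627. Slides and dyes alone leave 1 array per extract; of other changes the cause was not tested.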
